A study of Mus musculus with 6 samples.

Results

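The 6 genes described here are the forkhead transcription factors Foxo1, Foxo3, Foxp1, Foxf1, Foxc1 and Foxc2, chosen for their known roles in endothelium, together with every H3K9ac peak that the authors' annotation assigns to one of them. Of the 17901 peaks in the table, 25 carried one of these names: 15 at Foxp1, 6 at Foxo1, 2 at Foxc1 and 1 each at Foxo3 and Foxc2. Foxf1 had 0 peaks among the rows used here. H3K9ac, an acetyl mark on histone H3 of active promoters and enhancers, was mapped by CUT&RUN, in which a nuclease frees the DNA beneath an antibody-bound mark for sequencing. The cells were endothelial cells isolated from mouse lung. One group was WT, labelled Cre-neg (3 libraries), and the other CSE-KO, labelled Cre-pos (3 libraries). CSE is the cysteine-producing enzyme encoded by Cth. The labels used here do not say which promoter drives Cre, how old the mice were or whether each library is a different animal. The p-values therefore cover library-to-library spread only, and that spread could be technical.

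Forkhead proteins share a winged-helix DNA-binding domain. FOXO1 and FOXO3 are held out of the nucleus when growth factor signalling through PI3K and AKT phosphorylates them. In endothelium FOXO1 restrains growth and metabolism and is needed for vessels to form in the embryo. FOXP1 is mainly a repressor, FOXF1 acts in lung mesenchyme and lung capillaries, and FOXC1 and FOXC2 act in arterial and lymphatic development.

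Library totals over the peaks ran from 313610 (WT replicate 2) to 1173016 (CSE-KO replicate 1), with all 3 WT totals below the 3 CSE-KO totals. In the names of the authors' normalized columns, though not of the raw counts, the 2 groups carry different prefixes of unstated meaning, so genotype and any batch behind those prefixes cannot be told apart. The peaks of the 5 genes held 0.148% to 0.164% of the counts of a library. As a check of the cell type, 17 of 18 endothelial marker genes had a peak, against 5 of 12 epithelial, 1 of 10 hematopoietic and 1 of 12 mesenchymal markers. The summed level of the endothelial markers was 3373 to 3674 CPM (counts scaled to library size with edgeR's TMM factors) in WT and 3156 to 3585 in CSE-KO. The epithelial sum was 318 to 350 CPM in WT and 291 to 334 in CSE-KO. Sftpc, Nkx2-1, Ptprc and Pdgfra had no peak, nor had the endothelial marker Vwf. The epithelial markers with a peak were Epcam, Cdh1, Krt8, Krt18 and Scgb1a1. Scgb1a1 had 4 peaks, with 174 ± 19.2 (WT) and 159 ± 9.72 (CSE-KO) CPM (SD, n = 3). Csf1r was the hematopoietic and Col1a1 the mesenchymal marker with a peak. Cth, the targeted gene, had 0 peaks in the table, so the mark at that gene does not check the labels. A mark lost from some of the cells and a weaker mark in all of them cannot be told apart in such bulk libraries.

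The starts of these genes differ in sequence, and the sequences before 5 of them are shown because a peak lies on or near 4 of them and none near the fifth. Each line is the 250 bases before a RefSeq start on GRCm38.p6, written 5′ to 3′ on the strand of the gene. Capitals mark matches, on either strand, to the GC box GGGCGG, the CCAAT box CCAAT, the ETS core CCGGAA or the forkhead site TGTTTAC. No matches overlapped in these windows.

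Foxo1 (chr3:52268087-52268336, plus strand): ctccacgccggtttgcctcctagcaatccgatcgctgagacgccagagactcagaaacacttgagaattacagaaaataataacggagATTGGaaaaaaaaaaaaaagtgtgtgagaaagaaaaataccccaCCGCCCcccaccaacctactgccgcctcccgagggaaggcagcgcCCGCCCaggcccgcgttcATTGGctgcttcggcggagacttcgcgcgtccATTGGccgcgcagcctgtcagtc
Foxp1 outer start (chr6:99520994-99521243, minus strand): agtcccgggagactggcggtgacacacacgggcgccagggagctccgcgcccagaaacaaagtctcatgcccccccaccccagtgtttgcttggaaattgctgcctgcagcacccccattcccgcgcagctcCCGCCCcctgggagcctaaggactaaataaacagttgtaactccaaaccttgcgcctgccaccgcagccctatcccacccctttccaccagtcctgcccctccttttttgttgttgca
Foxp1 middle start (chr6:99266516-99266765, minus strand): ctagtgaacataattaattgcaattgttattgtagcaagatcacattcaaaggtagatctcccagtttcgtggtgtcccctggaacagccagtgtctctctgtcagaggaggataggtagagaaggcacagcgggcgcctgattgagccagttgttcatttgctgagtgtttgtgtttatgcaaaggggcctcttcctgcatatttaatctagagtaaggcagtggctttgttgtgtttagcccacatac
Foxp1 inner start (chr6:99028299-99028548, minus strand): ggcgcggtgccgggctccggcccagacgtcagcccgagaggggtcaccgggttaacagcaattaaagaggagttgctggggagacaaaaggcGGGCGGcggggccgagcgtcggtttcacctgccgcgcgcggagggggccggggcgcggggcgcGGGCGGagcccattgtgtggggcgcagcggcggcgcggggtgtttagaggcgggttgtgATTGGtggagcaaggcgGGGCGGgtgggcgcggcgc
Foxc1 (chr13:31806396-31806645, plus strand): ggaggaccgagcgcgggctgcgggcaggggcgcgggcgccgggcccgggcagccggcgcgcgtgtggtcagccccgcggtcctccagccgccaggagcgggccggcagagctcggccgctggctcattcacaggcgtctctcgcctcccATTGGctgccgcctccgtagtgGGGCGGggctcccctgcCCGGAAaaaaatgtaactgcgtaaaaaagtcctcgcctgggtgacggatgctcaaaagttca

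The inner Foxp1 window held 34 CpG dinucleotides, a count that 97% of 32851 RefSeq promoter windows do not exceed, and the middle one held 3, where the median window has 6. The Foxc1 window held 29, Foxo1 20 and the outer Foxp1 window 11. The Foxo3 window (chr10:42276696-42276945, minus strand) held 31 and is not shown. The forkhead site was in none of these 6 windows and in 3.17% of all windows. Foxc1 had the ETS core 62 bases before its start, which 12% of windows hold, and Foxo1 had the CCAAT box at 3 places, where 33.8% of windows have it at least once. A GC box, present in 32.7% of windows, was found in all but the middle Foxp1 window. These letter matches describe the windows and are not evidence of binding.

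No difference in H3K9ac between CSE-KO and WT passed the test at any peak of the 5 genes. None of the 24 tested peaks was called (edgeR quasi-likelihood test, adjusted p under 0.05), where 0.0868% of the 16134 tested peaks were called in all. The remaining peak, in a Foxp1 intron, had counts too low to be tested. The smallest adjusted p was 0.64 (edgeR), and DESeq2 and voom called none of them either. At an unadjusted p under 0.05 there were 2 of the 24, 1 higher and 1 lower, against 7.08% of all tested peaks. In the authors' deposited table the smallest adjusted p of the 25 peaks was 0.67, and 2 had an unadjusted p under 0.05. WT and CSE-KO libraries were fully apart at 7 of 24 peaks, 3 higher and 4 lower in CSE-KO, against 13.0% of all tested peaks. The log2 fold changes (CSE-KO over WT) ran from -0.47 to 1.16 with a median of 0.094, while the median over all tested peaks was -0.00034. At 16 of the 24 peaks the 95% interval lay within a 2-fold change in either direction, and at the other 8 it reached past a 2-fold change.

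Summed over all peaks of a gene, the counts gave 1 value per gene, at greater depth where a gene had more than 1 peak. Of 10569 genes tested in this way 0.123% were called, and none of the 5 was. Unadjusted, 6.88% of genes had a p under 0.05 and again none of the 5 did. The groups did not overlap at Foxo3 and Foxc2, both lower in CSE-KO, against 12.5% of all genes. Each of these genes has 1 peak, so its sum repeats the counts of that peak and adds no depth. The intervals were narrowest at Foxp1, which has the most counts.

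**Figure D1:**
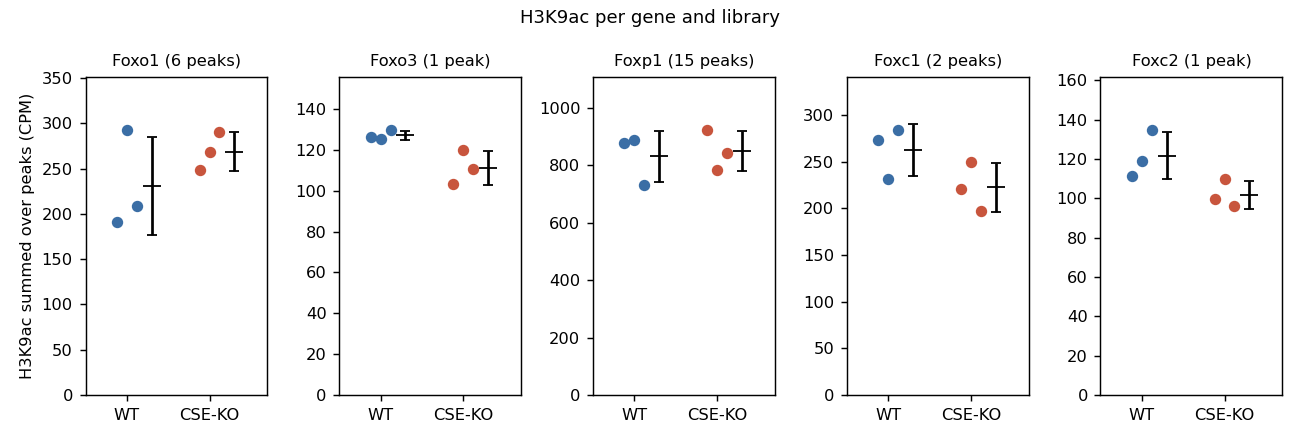
H3K9ac summed over the peaks of each gene in CPM (library-scaled counts, vertical axis from 0) for the 3 WT and the 3 CSE-KO libraries (points), with the mean and SD beside them. The CSE-KO points lie below all WT points at Foxo3 and Foxc2 and mix with them at Foxo1, Foxp1 and Foxc1.

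Per length, Foxc2 and Foxc1 held the highest WT levels of the 5 genes. In WT the sums per kb of peak were 80.1 ± 7.86 CPM per kb at Foxc2, 69.8 ± 7.37 at Foxc1, 53.1 ± 12.4 at Foxo1, 52.0 ± 0.959 at Foxo3 and 50.4 ± 5.30 at Foxp1 (SD, n = 3 each). The WT libraries of neighbours in this order overlapped in range. Farther apart in the order they did not: every Foxc2 value lay above every value of Foxo1, Foxo3 and Foxp1, and every Foxc1 value above those of Foxo3 and Foxp1. In CSE-KO the order was Foxc2 (67.1 ± 4.71 CPM per kb), Foxo1 (61.8 ± 4.93), Foxc1 (59.1 ± 6.99), Foxp1 (51.6 ± 4.18) and Foxo3 (45.5 ± 3.47). The median of all peaks in the table was 51.9 CPM per kb, with 34.1 and 84.9 at its 10th and 90th percentiles.

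Foxo1, the FOXO factor best known from endothelium, carried 6 peaks, 3 inside the gene and 3 beyond its end. As many or more were found at 209 of 11191 genes. Summed, they gave 191, 293 and 209 CPM in WT replicates 1 to 3 and 248, 268 and 291 CPM in CSE-KO replicates 1 to 3. WT replicate 2, the shallowest library, stood above every other library while the other WT libraries stood below every CSE-KO library, so the groups overlapped through that one library. The log2 fold change was 0.26 (SE 0.14, 95% interval -0.022 to 0.55, edgeR adjusted p = 0.74). Without WT replicate 2 it was 0.42, with an unadjusted p of 0.0057 and an adjusted p of 0.59 (edgeR), and without WT replicate 1 it was 0.14.

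In CPM, the strongest Foxo1 peak was not at the start but 60.1 kb into the gene, in intron 1 (chr3:52327445-52329384). Per length the order was the reverse. This intron peak of 1.94 kb held 55.8 CPM per kb, and the 0.621 kb peak at the start held 76.0. The intron peak had 91.9, 113 and 90.5 CPM in WT and 113, 121 and 120 in CSE-KO. The groups met at 113 CPM, and the log2 fold change was 0.28 (SE 0.20, edgeR adjusted p = 0.81). At the start, a peak in the 5′ UTR of exon 1 (chr3:52268420-52269040) began 83 bp after the first base of the gene and spread widely in both groups. Its levels were 26.7, 61.4 and 41.1 CPM in WT and 40.6, 48.2 and 65.2 in CSE-KO, a log2 fold change of 0.32 (SE 0.32) that ran from 0.037 without WT replicate 1 to 0.58 without WT replicate 2.

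Further along the same intron, a small peak (chr3:52342286-52342698) had the lowest unadjusted p of the 24. Its raw counts were 3, 6 and 9 in WT and 33, 18 and 17 in CSE-KO, or 4.45, 19.4 and 14.8 CPM against 27.9, 26.3 and 24.6. All CSE-KO libraries lay above all WT libraries. The fold was 2.24 (95% interval 1.14 to 4.42, log2 fold change 1.16, SE 0.49), with an unadjusted p of 0.021 and an adjusted p of 0.64 (edgeR), so it was not called. Without WT replicate 1 the log2 fold change was 0.67, and with the DESeq2 Wald test the unadjusted p was 0.054. In the authors' deposited table it is 1.12 with an adjusted p of 0.71.

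The 3 peaks beyond the end of Foxo1 were low in CPM but also short, at 299, 391 and 685 bp from nearest to farthest. Per length they held 61, 80.7 and 36.2 CPM per kb, in percentiles 66.6, 87.6 and 14.8 of all peaks. They lay 10.9, 33.4 and 40.5 kb past the gene, and the farthest overlapped an ORR1C2 repeat, an LTR element. Their log2 fold changes were 0.21, -0.33 and 0.16, with SE of 0.54, 0.36 and 0.40. At the nearest, WT replicate 2 held 38.8 CPM while WT replicates 1 and 3 held 10.4 and 6.58, and its sign turned when single libraries were left out. Another 2 peaks within 100 kb of the gene were assigned to the uncharacterized gene Gm30173 and did not pass either (edgeR adjusted p = 0.88 and 0.94).

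Foxo3, the FOXO factor tied to quiescence and stress resistance, had a single broad peak of 2.44 kb directly after its start (chr10:42274251-42276694, 5′ UTR of exon 2 by its centre). Its upper edge lies 1 bp from the first base of the gene. The levels were 126, 126 and 130 CPM in WT and 102, 120 and 110 in CSE-KO. All WT libraries stood close together and above all CSE-KO libraries. The log2 fold change was -0.21 (SE 0.19, 95% interval -0.59 to 0.16, edgeR adjusted p = 0.86), so the fitted difference did not pass although the groups were apart.

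**Figure D2:**
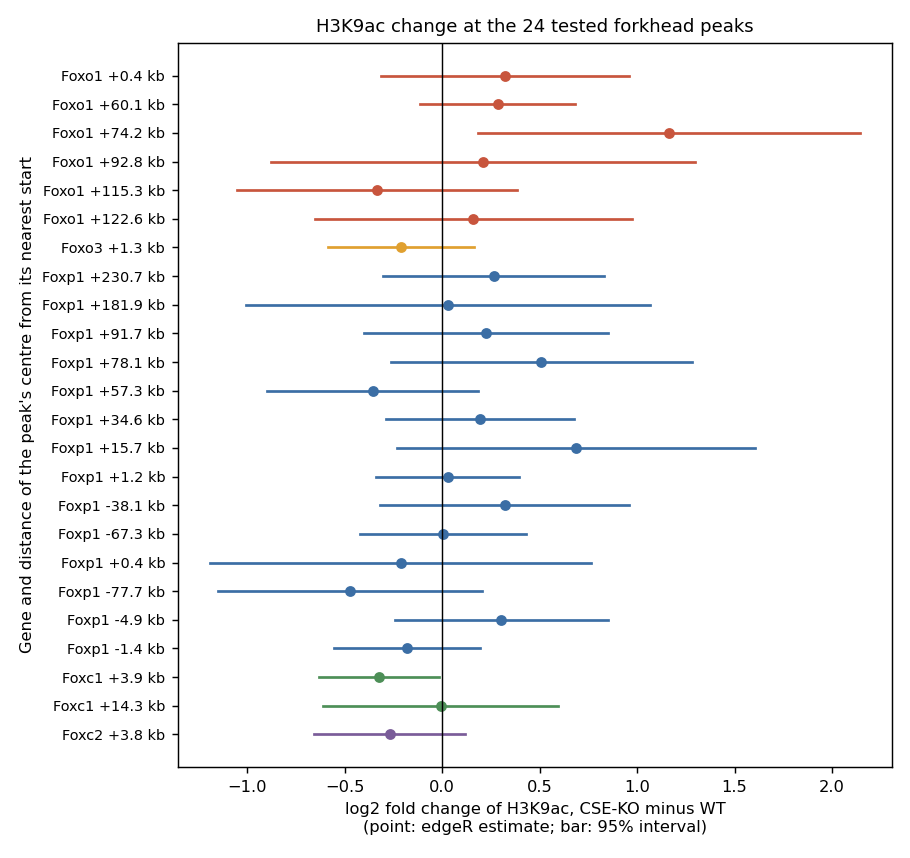
Log2 fold change of H3K9ac between CSE-KO and WT (horizontal axis) for the 24 tested peaks, labelled by gene and by the distance of the peak's centre from its nearest start. Points are edgeR estimates and bars 95% intervals; only the bars of the small Foxo1 peak 74.2 kb from the start (1.16) and of the Foxc1 peak 3.94 kb from the start (-0.33) miss 0, before adjustment.

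Foxp1, whose product is a repressor known from lung and vessel development, carried 15 peaks, and only 2 of the 11191 genes had more. The gene spans 597 kb, and 13 of the peaks overlapped it while 2 lay 78.7 and 127 kb past its end. Summed, the peaks gave 877, 887 and 731 CPM in WT and 923, 786 and 845 in CSE-KO, with the groups interleaved. The log2 fold change was 0.043 (SE 0.091), and its 95% interval, -0.14 to 0.23, held changes between 0.908-fold and 1.17-fold (edgeR adjusted p = 0.97). Of its 14 tested peaks 10 lay above 0 and 4 below, with a median of 0.11. The adjusted p of each was 0.79 or more.

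Levels along Foxp1 varied 9.51-fold in CPM between peaks, and the 4 strongest held 54.3% of the summed signal. The peaks were 321 to 2667 bp long, and per length they ran only from 30.2 to 80.2 CPM per kb. The strongest followed the inner start (chr6:99026244-99028051, 1.81 kb), with 174, 149 and 107 CPM in WT and 130, 162 and 149 in CSE-KO. Here WT replicate 1 was the highest library and WT replicate 3 the lowest, and the log2 fold change was 0.028 (SE 0.18). The outermost peak (chr6:99521106-99523772, 2.67 kb, in a CpG island by the authors' annotation) covers 138 of the 250 bases shown before the outer start. Its WT levels were 139, 139 and 125 CPM and its CSE-KO levels 135, 95.02 and 120, a log2 fold change of -0.18 (SE 0.19) that ran from -0.31 without CSE-KO replicate 1 to -0.058 without CSE-KO replicate 2. The groups overlapped at both starts.

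The middle start carried much less of the mark. Its peak (chr6:99265799-99266397) had 11.9, 38.8 and 18.1 CPM in WT and 26.2, 14.6 and 10.1 in CSE-KO. Per length the peaks next to the inner, outer and middle starts held 80.2, 47.1 and 33.3 CPM per kb, in percentiles 87.2, 40 and 7.90 of all peaks. The inner window holds the most CpG and the middle one the fewest, as shown above. These are only 3 of the starts of 1 gene, so this order is a description. The annotated gene begins farther out, at base 99522746 under the outermost peak. The peak given below at -4.92 kb has yet another nearest start. The fold change at the middle start, -0.21 (SE 0.49), turned to 0.25 without WT replicate 2.

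Another strong element, in intron 4 of a longer transcript (chr6:99094751-99096361), lay 67.3 kb before the inner start. It had 122, 142 and 77.3 CPM in WT and 125, 78.9 and 125 in CSE-KO, and the groups overlapped fully (log2 fold change 0.0038, SE 0.21). Groups that did not overlap occurred at 3 weaker Foxp1 peaks. The peak in intron 3 at chr6:99012380-99012817 had 8.90, 16.2 and 21.4 CPM in WT and 27.9, 21.9 and 23.2 in CSE-KO (0.69, SE 0.46), a value of 0.35 without WT replicate 1 and of 1.08 without WT replicate 3. The peak at -4.92 kb from its nearest start (chr6:99439699-99440842), with 53.4, 45.2 and 47.7 CPM in WT and 67.7, 59.9 and 53.6 in CSE-KO, was higher too (0.30, SE 0.27), and that in intron 9 (chr6:98970233-98971668) was lower in every CSE-KO library (-0.36, SE 0.27). None of these passed (edgeR adjusted p = 0.79, 0.86 and 0.82).

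The other Foxp1 peaks lay between -0.47 and 0.51 on the log2 scale. The peak of low counts left out of the test (chr6:98956417-98956737, intron 10) had 5, 12 and 2 reads in WT and 17, 8 and 11 in CSE-KO. One more peak inside Foxp1 (chr6:99171459-99172179) was assigned by the authors to the microRNA gene Mir12201. Its level averaged 41.4 ± 10.2 (WT) and 50.5 ± 8.22 (CSE-KO) CPM (SD, n = 3), with a log2 fold change of 0.33 (edgeR adjusted p = 0.86).

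**Figure D3:**
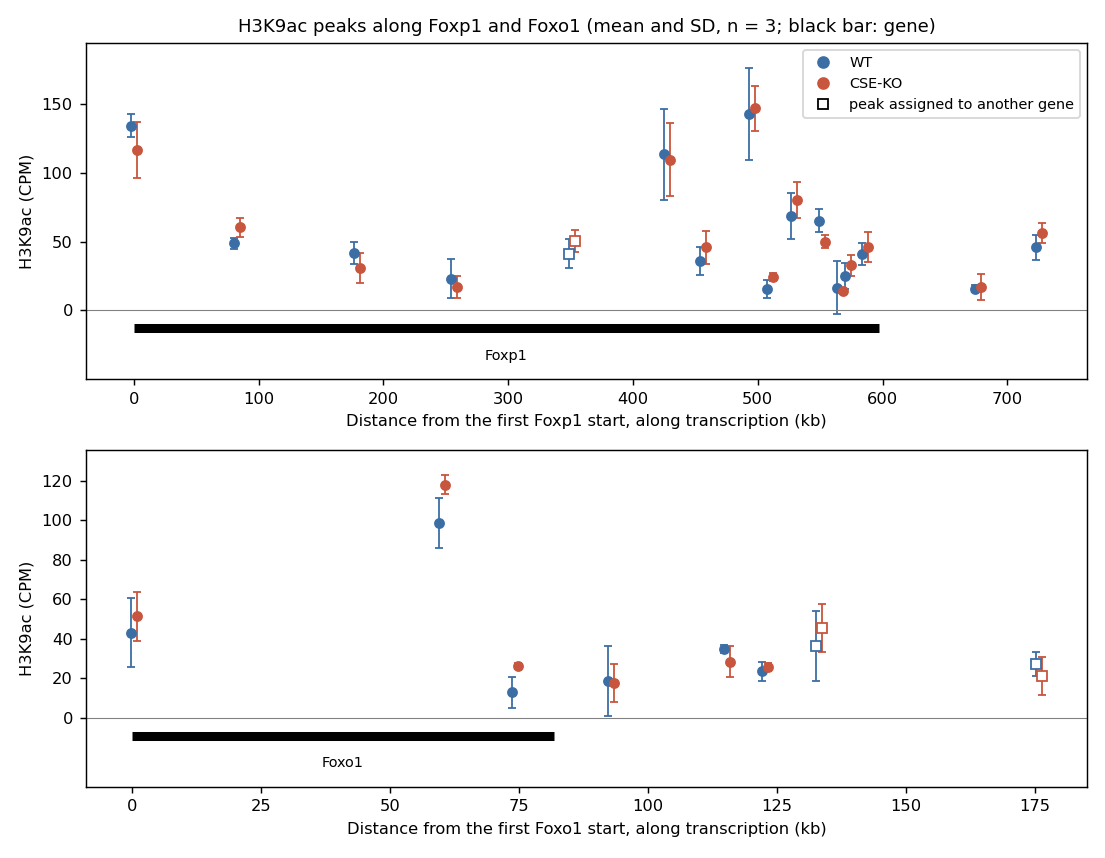
Mean H3K9ac in CPM (points, bars are SD, n = 3) of WT and CSE-KO at each peak, against distance in kb from the first start of Foxp1 (upper) and Foxo1 (lower), with the gene as a black bar and peaks assigned to other genes as open squares. In CPM, not scaled to peak length, the strongest Foxp1 peaks lie at the outer start, in intron 4 and after the inner start. The Foxo1 peak with the most CPM lies inside intron 1, 60.1 kb from the start.

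Foxc1 and Foxc2, close relatives, each carried their strongest peak at the 3′ end of the gene, with none at the start. The Foxc1 peak (chr13:31809222-31811958, 2.74 kb, annotated at the transcription end) begins 2.58 kb after the first base. It was the most abundant of the 25 peaks, with 220, 194 and 244 CPM in WT and 178, 193 and 159 in CSE-KO. All CSE-KO libraries lay below all WT libraries, with WT replicate 2 and CSE-KO replicate 2 nearly level. The log2 fold change was -0.33 (SE 0.15, 95% interval -0.63 to -0.017), a fold of 0.798, with an unadjusted p of 0.039 and an adjusted p of 0.68 (edgeR). It was -0.39 without WT replicate 2 (edgeR unadjusted p = 0.017) and -0.24 without WT replicate 3 (edgeR unadjusted p = 0.17). With the DESeq2 Wald test the unadjusted p was 0.062. The authors' deposited table has -0.36 with an adjusted p of 0.67.

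Another peak named for Foxc1 lies 9.77 kb past that gene, in intron 9 of the neighbouring gene Gmds (chr13:31820402-31821432). It had 53.4, 38.8 and 41.1 CPM in WT and 41.5, 57.01 and 37.7 in CSE-KO, with the groups mixed and a log2 fold change of -0.0080 (SE 0.30). Summed over both peaks, Foxc1 had 273, 231 and 284 CPM in WT and 221, 250 and 198 in CSE-KO. WT replicate 2 fell within the CSE-KO range, and the log2 fold change was -0.26 (SE 0.14, 95% interval -0.53 to 0.015, edgeR adjusted p = 0.74).

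The Foxc2 peak (chr8:121119222-121120739) lies 327 bp past the end of the gene. It had 111, 120 and 135 CPM in WT and 99.01, 110 and 95.6 in CSE-KO. All CSE-KO libraries were lower, the closest pair being WT replicate 1 and CSE-KO replicate 2. The log2 fold change was -0.27 (SE 0.19, 95% interval -0.66 to 0.12), and it did not pass (edgeR adjusted p = 0.81).

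Foxf1, which is needed for lung capillaries, lies on the same chromosome 8 stretch (chr8:121084386-121088154) as Foxc2. No peak of the table overlapped it. The nearest lay 112 kb before it and 19.7 kb after it, and 2 identifiers of the numbered peaks between these are not among the rows analysed here. Within 100 kb of Foxf1 there were 3 peaks, named for Mthfsd, Foxc2 and Foxl1. The Mthfsd peak, 7.90 kb before Foxc2, averaged 22.1 ± 6.42 (WT) and 12.6 ± 4.69 (CSE-KO) CPM (SD, n = 3), was lower in every CSE-KO library and did not pass (log2 fold change -0.73, SE 0.49, edgeR adjusted p = 0.80). The Foxl1 peak had 25.5 ± 5.37 and 23.9 ± 7.56 CPM (log2 fold change -0.070).

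**Figure D4:**
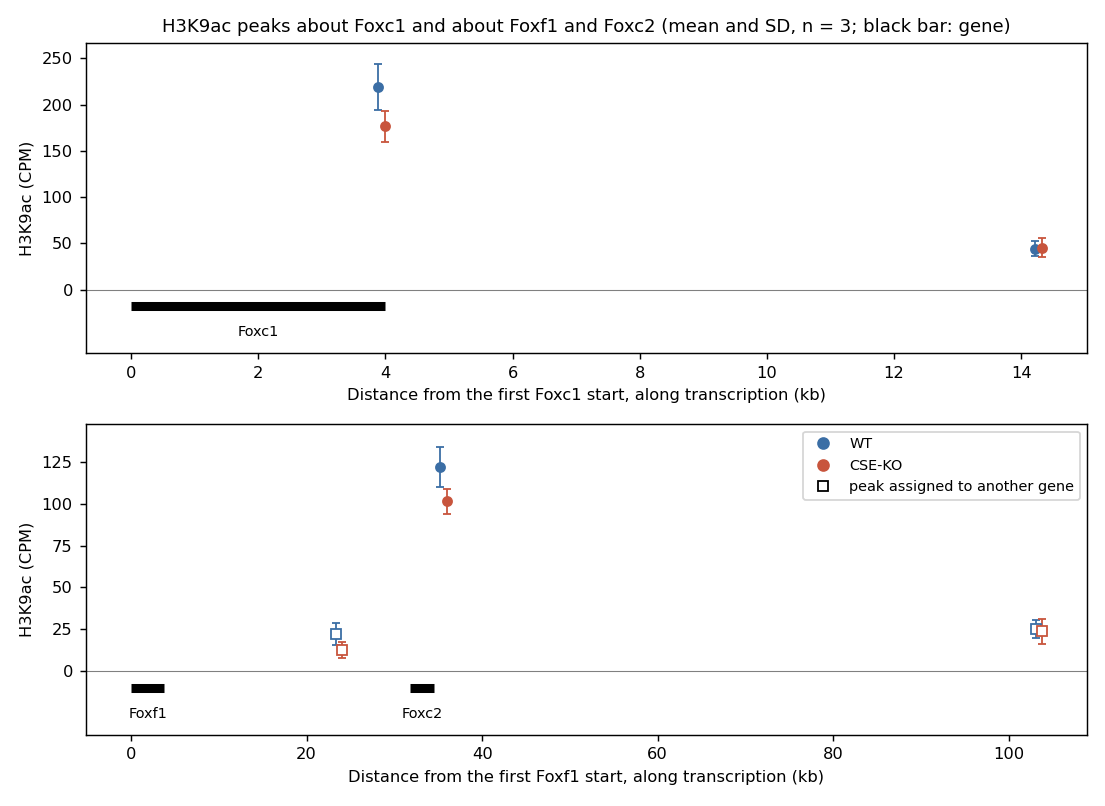
Mean H3K9ac in CPM (points, bars are SD, n = 3) of WT and CSE-KO at each peak, against distance in kb from the start of Foxc1 (upper) and of Foxf1 (lower), with genes as black bars and peaks assigned to other genes as open squares. The strongest Foxc1 peak and the Foxc2 peak sit at the gene ends with CSE-KO below WT, and no peak lies on Foxf1.

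By the distance of a peak's centre in the authors' annotation, most of the mark at these genes was classed as distal. Of all 17901 peaks, 9880 were distal by the same rule. Only 2 of the 25 peaks, at Foxo1 and at the middle Foxp1 start, had their centre within 1000 bp of the start it names. The broad peaks at Foxo3 and at the inner and outer Foxp1 starts are centred farther from theirs. They count as distal here although they lie on or next to a start, and in WT they averaged 127, 143 and 134.5 CPM. The distal sum is therefore not a measure of the mark away from starts. The 23 distal peaks together averaged 1512 ± 70.4 (WT) and 1482 ± 31.4 (CSE-KO) CPM (SD, n = 3), and the 2 promoter peaks 66.0 ± 31.4 and 68.3 ± 6.36.

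Across the 6 libraries the sums of Foxo3, Foxc1 and Foxc2 moved together, with Pearson's r of log2 CPM from 0.775 to 0.854 in the 3 pairs, while Foxo1 ran against Foxc1 (r = -0.80). The genes most like each, among 1852 or 1853 genes with a mean summed count of 100 or more, were Rasa3 and Cnot7 for Foxo1 (r = 0.964 and 0.960), Eef1a1 and Clic1 for Foxo3 (0.994 and 0.988), and Pacsin2 and Chac1 for Foxp1 (0.952 and 0.950). For Foxc1 they were Cacybp and Hnrnpk (0.985 and 0.984), and for Foxc2 Fam91a1 (0.974). With 6 libraries in 2 groups of unlike depth and so many genes compared, these values are a description.

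Genes that regulate FOXO proteins or are known targets of forkhead factors were tested on their summed peaks, and none passed (edgeR, adjusted over all genes). Of 36 FOXO regulators 31 were tested, with a median log2 fold change of -0.028 against -0.0027 over all genes, and 1 had an unadjusted p under 0.05, as did 6.88% of all genes. That was Igf1r, the receptor of insulin-like growth factor, whose groups overlapped, with 269 ± 43.5 (WT) and 329 ± 15.5 (CSE-KO) CPM (SD, n = 3; 0.27, SE 0.13). Sgk3, a kinase related to AKT, averaged 282 ± 17.2 and 329 ± 26.8 CPM (0.22, SE 0.12). Of 42 FOXO target genes 31 were tested (median 0.013), and 3 had an unadjusted p under 0.05, all with lower values in CSE-KO, a number near the 6.88% of all genes. Trib1, a pseudokinase gene with 10 peaks, was lower in every CSE-KO library, at 754 ± 54.3 (WT) and 631 ± 60.8 (CSE-KO) CPM (-0.25, SE 0.095, edgeR adjusted p = 0.63). Map1lc3b, an autophagy gene whose groups overlapped, had -0.64 (SE 0.27).

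Of 22 genes of the Foxf1 locus or regulated by FOXF1, 18 were tested (median -0.018). At an unadjusted p under 0.05, 1 had a higher value and 3 a lower one, a larger share than the 6.88% of all genes. Cdh5, the endothelial cadherin, was lower in every CSE-KO library, with 234, 283 and 232 CPM in WT and 190, 189 and 193 in CSE-KO (-0.37, SE 0.14, edgeR adjusted p = 0.64). Tie1, an endothelial receptor, had 0.71 (SE 0.29, edgeR adjusted p = 0.66), with overlapping groups. Both are also among the endothelial markers, of which 16 were tested and none was called. At an unadjusted p under 0.05 (edgeR), 2 of those markers were higher in CSE-KO and 2 lower. Whether the makeup of the cells has a part in these values was not tested. Of 23 FOXC targets and partners 14 were tested (median 0.060), with 1 lower at an unadjusted p under 0.05, again beside 6.88% of all genes. It was Notch4, an endothelial Notch receptor, at 93.2 ± 8.99 (WT) and 64.9 ± 8.24 (CSE-KO) CPM (-0.51, SE 0.23, edgeR adjusted p = 0.68). Nfatc1, a valve factor, had 0.54 (SE 0.31). Among 15 other forkhead genes with peaks, 14 were tested, 8 lay above 0 and 6 below (median 0.058), and 0 had an unadjusted p under 0.05. The smallest p were those of Foxp2 (0.29, SE 0.15) and Foxm1 (-0.59, SE 0.32), both with overlapping groups and an edgeR adjusted p of 0.74.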

How the data were processed

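H3K9ac CUT&RUN libraries of lung endothelial cells, 3 WT and 3 CSE-KO, were analysed from 1 deposited table of peaks. Tools listed in the submitters' processing notes are featureCounts, Picard 3.1.1, STAR 2.7.11a, Trimmomatic 0.39 and DESeq2 1.36.0. Neither the peak caller nor the handling of multi-mapping reads is stated there. The authors deposited raw read counts per peak and library, and these counts alone were tested. The authors' own fold changes and p-values are quoted only where their table is named.

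The notes name mm39, but the table follows GRCm38: the start implied by a peak's distance lay within 100 bp of the RefSeq gene edge on GRCm38.p6 for 66.8% of peaks (median gap 4.5 bp). The table's 17901 rows carry identifiers up to 23867, so not every numbered peak was analysed here.

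Peaks, and counts summed per gene name, were tested with edgeR 4.0.16 in R 4.3.3 (TMM, filterByExpr at 10 counts, quasi-likelihood F test, two-sided, group as the only term, Benjamini-Hochberg over all peaks or all genes, threshold 0.05). Peaks and sums were scaled separately, so their CPM differ slightly. Intervals are at the 95% level. The fits were tested on simulated data. Library pairs within a group differed beyond counting error (chi-square over its degrees of freedom, 1.87 to 2.15). Alternatives were RLE factors, library size alone, library totals implied by the RPKM values, the DESeq2 1.42.0 Wald test, voom (limma 3.58.1), a mean count of at least 50, no filter, a replicate block and each library left out. Gene names matched RefSeq for 11058 of 11191.

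The genes and lists were chosen with earlier results of these data known. Named genes are all peaks of the 6 factors, called genes and the 2 with the smallest p of each list, the 2 most alike per factor (1 of them is not reported here), and other forkhead genes with a call or a mean summed count of 200 or more, of which there were none.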

Additional observations from a re-analysis of the deposited data

How the results depend on the processing

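No peak of the 5 genes was called under any of the 14 alternatives, and no gene sum was. At 18 of the 24 tested peaks, and for the sums of Foxo1, Foxo3, Foxc1 and Foxc2, the sign held throughout. The Foxp1 sum and 6 peaks turned sign, with values between -0.21 and 0.21. The Foxp1 sum ran from -0.047 to 0.095 with 1 library left out, and fell below 0 without WT replicate 3 or CSE-KO replicate 1. Among peaks with 1 library left out, the middle Foxp1 start ran from -0.75 to 0.25, the Foxp1 intron 4 element from -0.23 to 0.18, the Gmds intron peak from -0.18 to 0.16, the inner Foxp1 start from -0.17 to 0.24, the Foxp1 peak 78.7 kb past the gene from -0.48 to 0.39, and the nearest Foxo1 peak past the gene from -0.24 to 1.07. Each of the 6 libraries turned at least 1 of these signs when left out. With voom the middle start had 0.020 and the Foxp1 peak 78.7 kb past the gene -0.26. The intron 4 element had -0.019 with DESeq2 and -0.0025 without a filter, and the Gmds intron peak 6.19e-05 with DESeq2 and 0.011 with library size alone. The cause of these turns was not tested. The count over all peaks, 14, was 7 with DESeq2, 8 at a mean count of 50 or more, and 6 (without CSE-KO replicate 1) to 13 with 1 library left out; that over genes, 13, was 5, 8, and 5 (without CSE-KO replicate 3) to 9. The filter at a mean count of 50 left 8 of the 24 peaks, so the rest have no value there.

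Whether the replicate numbers pair the libraries could not be told. Deviations of same-numbered libraries correlated at 0.064, 0.0125 and 0.00769, and only WT replicate 1 correlated best with its own number. The tested peaks had a median mean count of 32, where counting noise lowers such correlations, so these values do not exclude a pairing. With a replicate block 15 peaks and 17 genes were called, none of them at these factors, and the Foxp1 peak 78.7 kb past the gene had -0.082. Depth limits single peaks: fold changes on the log2 scale had a median SE of 0.30 at these peaks, and also over all peaks; over the sums of all genes it was 0.25.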
